A study of Drosophila melanogaster with 2 samples.

Results

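Divergent promoters are places where 2 genes on opposite strands start close together and point away from each other. Peaks of a Dip2-eGFP fusion protein at such promoters were examined in ChIP-seq data from whole Drosophila melanogaster embryos. A peak was kept when its summit lay within 500 bp of a transcript start with an oppositely oriented start of a second gene no more than 1000 bp upstream. Of the 973 peaks in the authors' longer list made from both replicates, 910 lay on the 7 chromosome arms and 63 did not, and 186 of the 910 met this rule. The series holds 1 group of 2 biological replicates: transgenic flies expressing Dip2 fused to eGFP, sampled as embryos aged 0 to 18 h, with anti-GFP immunoprecipitation of chromatin sonicated to 200 to 800 bp. The labels name Dip2 in the antibody field and Dlip2 as the targeted gene. No group without the fusion was analysed here, and an input that all lists share was taken to be the control. Whole embryos mix many cell types and stages over this window, so a peak may come from any of them. Library depth is unknown, because the deposited lists give no read counts.

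In a compact genome such as that of Drosophila, many genes share an upstream region with a neighbour on the other strand. The stretch between both starts then serves both promoters, is often free of nucleosomes, and can carry binding sites for promoter and insulator proteins. CTCF is a zinc finger insulator protein. The DNA replication-related element (DRE) is a core promoter sequence bound by DREF and BEAF-32, and BEAF-32 is an insulator protein common at divergent gene pairs. Ohler motif 7 is a core promoter element found by sequence comparison at starts of broadly expressed genes. Each peak comes with a signal value assigned by the peak caller that the authors ran. Its scale is not stated, and it is used here to rank peaks within a list.

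The sequences between the starts are shown for 8 of the 15 peaks of highest signal, to show the CTCF core, a site frequent at the strong end of the class, and stretches without it. They are RefSeq sequences of dm6, plus strand, 5′ to 3′, within 100 bp of the summit and outside annotated exons. Capitals mark the CTCF core (AGAGGGC or AGATGGC or AGGGGGC or AGGTGGC on either strand), which is absent from the stretches of CIA30/CG7601 and CenG1A/mRpS23. The sgll/CG2993 stretch holds 3 matches.
Rsbp15/CG4860 chr3R:12222187-12222386: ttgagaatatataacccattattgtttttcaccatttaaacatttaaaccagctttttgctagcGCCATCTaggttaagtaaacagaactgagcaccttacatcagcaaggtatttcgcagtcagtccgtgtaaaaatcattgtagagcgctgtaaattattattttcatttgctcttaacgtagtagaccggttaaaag
Pka-C3/GXIVsPLA2 chr3L:15954798-15954975: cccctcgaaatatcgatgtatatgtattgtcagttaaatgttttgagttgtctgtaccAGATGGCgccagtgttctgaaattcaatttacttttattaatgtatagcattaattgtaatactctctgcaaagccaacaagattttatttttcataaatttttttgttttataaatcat
Pez/Cpr chr2L:6338672-6338835: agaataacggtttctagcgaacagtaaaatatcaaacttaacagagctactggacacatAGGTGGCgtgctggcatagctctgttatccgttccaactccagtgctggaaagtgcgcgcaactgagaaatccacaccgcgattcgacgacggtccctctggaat
sgll/CG2993 chr3R:7810313-7810513: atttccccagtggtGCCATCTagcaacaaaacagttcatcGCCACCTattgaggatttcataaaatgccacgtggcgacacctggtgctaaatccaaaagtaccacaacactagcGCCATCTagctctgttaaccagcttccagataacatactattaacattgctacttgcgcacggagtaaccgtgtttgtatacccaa
FeCH/RhoGAP100F chr3R:31812297-31812465: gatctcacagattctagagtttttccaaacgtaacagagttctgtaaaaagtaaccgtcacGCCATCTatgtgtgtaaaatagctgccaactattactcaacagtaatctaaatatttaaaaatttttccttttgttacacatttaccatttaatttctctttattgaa
Tcs5/CHMP2B chr3L:5139396-5139596: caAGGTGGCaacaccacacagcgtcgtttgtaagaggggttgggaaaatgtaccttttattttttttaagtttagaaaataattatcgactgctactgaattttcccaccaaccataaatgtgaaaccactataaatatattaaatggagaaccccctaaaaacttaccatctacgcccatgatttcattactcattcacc
CIA30/CG7601 chr3R:29736759-29736959: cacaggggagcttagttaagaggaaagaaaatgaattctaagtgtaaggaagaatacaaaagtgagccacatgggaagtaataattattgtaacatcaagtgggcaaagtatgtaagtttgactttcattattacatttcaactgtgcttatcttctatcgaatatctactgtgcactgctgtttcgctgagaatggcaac
CenG1A/mRpS23 chr2L:13835355-13835555: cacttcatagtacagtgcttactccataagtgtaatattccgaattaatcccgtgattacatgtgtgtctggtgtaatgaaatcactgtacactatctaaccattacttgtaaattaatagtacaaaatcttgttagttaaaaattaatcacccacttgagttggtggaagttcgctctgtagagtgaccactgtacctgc

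A further 4 stretches show promoter elements that were more frequent around the summits here than around those at single promoters. For DRE this difference passed the test in 4 of 14 alternative settings, as given below. In fws/Lamtor3 and Gmd/CG3792 the capitals mark DRE (TATCGATA), and in Bulli/CG10147 and Liprin-beta/Vps36 they mark Ohler motif 7. They were chosen after their values were seen, from the peaks below the first 15 with that element between the starts. Liprin-beta/Vps36, with a signal of 87.8, lay below the class median of 96.9.
fws/Lamtor3 chr2L:17481188-17481228: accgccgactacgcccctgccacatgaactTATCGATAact
Gmd/CG3792 chr2L:4977024-4977067: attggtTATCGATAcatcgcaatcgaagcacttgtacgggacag
Bulli/CG10147 chr3L:6488480-6488680: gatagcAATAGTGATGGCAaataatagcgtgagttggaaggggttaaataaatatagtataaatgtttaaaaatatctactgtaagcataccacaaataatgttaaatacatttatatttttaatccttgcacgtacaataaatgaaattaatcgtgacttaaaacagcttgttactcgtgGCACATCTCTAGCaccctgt
Liprin-beta/Vps36 chr3L:13513113-13513161: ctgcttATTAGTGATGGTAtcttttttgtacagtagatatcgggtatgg

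The strongest divergent-promoter peaks lay between genes of varied function, and each was a thresholded peak of both replicates. Signal is given for the pooled list, then for replicate 1 and replicate 2, and the lists are not compared with one another. The strongest lay between Lap1 and Agps, an enzyme of ether lipid synthesis, at chr2R:14935289-14935758, with 2642 in the pooled list, 1087 in replicate 1 and 1562 in replicate 2. The next, at CG1648/CG34033 (chr2R:9820045-9820435), had 2017, 825 and 1220.3. The third (chr3R:12222094-12222491) lay 100 bp upstream of Rsbp15, a radial spoke protein of cilia, and 923 bp separated this start from that of CG4860, with signals of 1939, 712 and 1232. The peak at lncRNA:CR44662/CG33177 (chrX:15080981-15081401; 1776, 664 and 1117) had its summit in an exon of the non-coding RNA. The other 14 of the first 15 had intergenic summits between both starts. By signal, all of the first 15 ranked within the first 164 thresholded peaks of each replicate's own list.

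Pka-C3, a catalytic subunit of the protein kinase A family, shares its upstream region with the secreted phospholipase gene GXIVsPLA2, where signals were 1465 in the pooled list, 504 in replicate 1 and 958 in replicate 2. Between Pez, a tyrosine phosphatase, and Cpr, the electron donor of cytochrome P450 enzymes, they were 1033, 318 and 713. The summit there lay 9.5 bp from the midpoint of starts 165 bp apart. CG8490/tRNA:His-GTG-1-3 (929, 293 and 633) was the strongest pair with a transfer RNA gene. The vitamin B6 enzyme gene sgll and CG2993 had 776, 347 and 427. Below these, pooled signals ran from 569 to 358 over the last 7 of the 15. They were at Ugalt (a UDP-galactose transporter)/eIF2Bbeta, FeCH (ferrochelatase of heme synthesis)/RhoGAP100F, mRpL41/CG8079, Ufd1 (a ubiquitin pathway cofactor)/NaPi-III, CIA30 (a complex I assembly factor)/CG7601, Tcs5/CHMP2B (a subunit of ESCRT-III) and CenG1A/mRpS23. Their replicate 1 signals were 133 to 239 and their replicate 2 signals 185 to 366.

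Over all 186 peaks the median signal was 96.9 (range 2.27 to 2642), against 107 at the 253 single-promoter peaks of the list and 94.6 at the 471 peaks away from starts. The 3618 divergent-promoter candidates outside the thresholded list had a median of 17.2. Of the 186 peaks, 82 (44.1%) were above the median of all promoter peaks, against 137 of 253 (54.2%) at single promoters (odds ratio 0.668, Fisher's exact p = 0.0426, adjusted exact p = 0.0568). This did not pass after Benjamini-Hochberg adjustment over the 8 shares compared. It passed with promoters of 250 bp (odds ratio 0.596, adjusted exact p = 0.0335) and with partner starts up to 2000 bp away (0.56, adjusted exact p = 0.00486). There were 6 peaks below 16.8, the median signal of all candidates outside the list on the arms, and all 6 overlapped another peak of the list. The tests treat peaks as independent, although peaks are not samples, and 20 of the 186 share a gene pair with another. Candidates repeat start pairs more often: with 1 kept per start pair, 2327 of the 3618 candidates remained, against 180 of the 186 peaks. With these, the odds ratio for start distances up to 300 bp was 1.78, and for both genes protein-coding 1.99. With 1 group there is no test between samples. Intervals are 95% Wilson intervals and cover the number of peaks only.

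Divergent promoters made up 186 of 439 promoter peaks (42.4%, 37.8% to 47.0%), against 3618 of 16766 promoter candidates (21.6%, 21.0% to 22.2%). Of 136579 peaks and candidates on the arms, 0.666% were in the thresholded list, and of 3804 at divergent promoters 4.89% were. The rule itself used list membership and divergent starts, so these shares are a description. CG13631/lncRNA:CR45650 (400 bp from the nearest start, signal 65.6) and gce/asRNA:CR44429 (388 bp, 19.1) were the farthest inside the 500 bp limit. The nearest outside were antr/asRNA:CR45468 (585 bp, 72.8) and kuk/Keap1 (636 bp, 85.1). At the 1000 bp limit between starts, Smg5/Ance (984 bp, signal 132) and lncRNA:CR44917/lncRNA:CR44918 (976 bp, 89.4) lay inside, and Eno/Rrp40 (1015 bp, 155) and CASK/lncRNA:CR45632 (1018 bp, 638) outside.

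Summits of the divergent-promoter peaks lay between both starts far more often than those of candidates at the same kind of promoter. This held for 144 of 186 peaks (77.4%, 70.9% to 82.8%), against 947 of 3618 candidates (26.2%, 24.8% to 27.6%), an odds ratio of 9.67 (adjusted exact p = 8.64e-45). The remaining 42 summits were downstream of the nearest start, at a median of 59.5 bp. No summit lay beyond the partner start, so the 144 were also all those upstream of the nearest start. At single-promoter peaks, 224 of 253 summits lay upstream of the nearest start. An upstream summit was thus not particular to divergent promoters. Median summit position was -97.5 bp from the nearest start (upstream) in the peaks and 174 bp (downstream) in the candidates. Where the starts were under 100 bp apart, 2 of 15 peak summits lay between them, against 18 of 347 candidate summits. Where they were 100 bp or more apart, 142 of 171 peak summits did, against 929 of 3271 candidate summits. Among close pairs, the starts of SerRS, a tRNA synthetase gene, and CG17260 lie 8 bp apart, and the summit was 40 bp into the transcribed side. The same held at lncRNA:CR44209/Cyt-b5 (9 bp apart, 149 bp) and at p38a, a stress kinase gene, with CG6178 (26 bp apart, 173 bp).

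**Figure D1:**
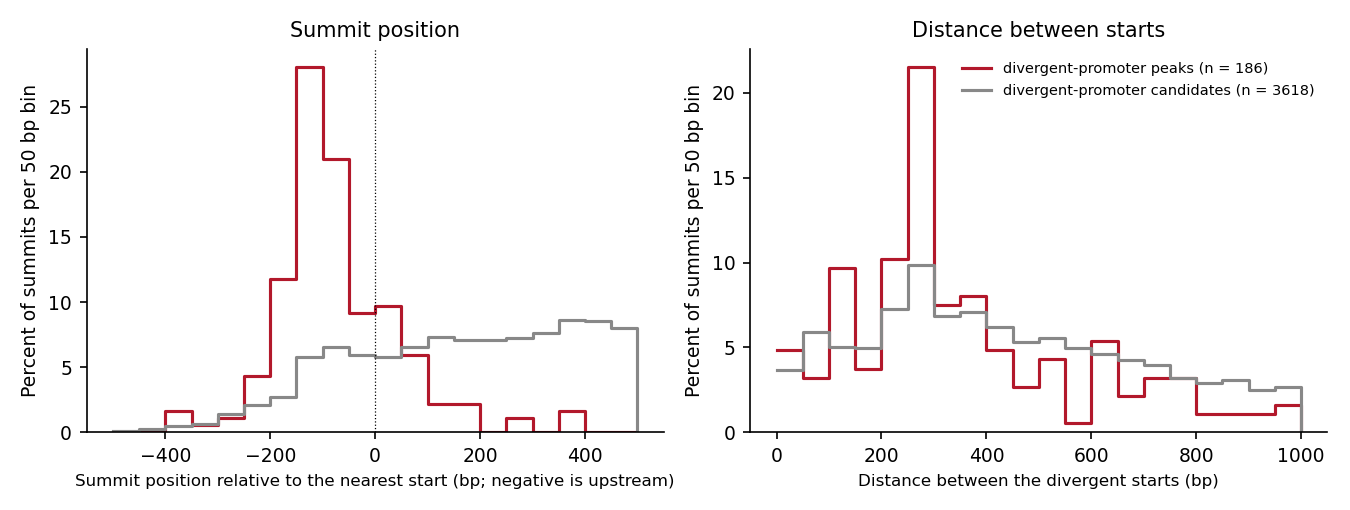
Left, summit position relative to the nearest transcript start in 50 bp bins, and right, distance between the divergent starts in 50 bp bins, as percent of summits, for 186 divergent-promoter peaks (red) and 3618 divergent-promoter candidates outside the list (grey). Peak summits gather upstream of the start, with a median of -97.5 bp, while candidates have a median of 174 bp.

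Within the shared region, peak summits lay near its middle more often than candidate summits did. Of the 144 summits between the starts, 79 (54.9%, 46.7% to 62.8%) were within 50 bp of the midpoint, against 275 of 947 candidate summits (29.0%, 26.2% to 32.0%). The starts around these summits were closer together in the peaks, with a median of 312 bp against 496 bp, which brings any position nearer to the midpoint. The median distance to the midpoint was 37.5 bp in the peaks and 112 bp in the candidates, and the median distance to the nearest start was 114 bp in the peaks and 104 bp in the candidates. At CIA30/CG7601 the summit was 4 bp from the midpoint of starts 220 bp apart, and at Tcs5/CHMP2B 11 bp from the midpoint of starts 224 bp apart. Several other strong peaks lay far from the midpoint. At Ugalt/eIF2Bbeta, with 719 bp between the starts, the summit was 20 bp from the Ugalt start and 339.5 bp from the midpoint. The distance to the midpoint was 232 bp at Lap1/Agps, 263 bp at mRpL41/CG8079 and 362 bp at Rsbp15/CG4860.

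Short distances between starts were more frequent in the peaks. Starts were up to 300 bp apart in 99 of 186 peaks (53.2%), against 1334 of 3618 candidates (36.9%), an odds ratio of 1.95 (adjusted exact p = 2.4e-05). The median distance was 289.5 bp in the peaks and 394 bp in the candidates. The class of 200 to 300 bp held 59 peaks (31.7%, 25.5% to 38.7%) and 625 candidates (17.3%, 16.1% to 18.5%). Among the widest pairs were Ank2, an ankyrin gene, with Mcad, of fatty acid oxidation (955 bp, signal 99.5), besides the pairs at the 1000 bp limit.

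Most of these pairs joined protein-coding genes. Both genes were protein-coding at 164 of 186 peaks (88.2%), against 2893 of 3618 candidates (79.96%), an odds ratio of 1.87 (adjusted exact p = 0.0093). This did not pass with summits up to 1000 bp from a start (1.59, adjusted exact p = 0.0597) or partner starts up to 2000 bp away (1.42, adjusted exact p = 0.0689). The nearest gene was a non-coding RNA gene and its partner protein-coding at 9 peaks, and the reverse at 6. The 186 peaks belong to 176 distinct gene pairs with 352 genes. Summits were intergenic at 106 peaks, in introns at 34, in 5' UTRs at 32, in other exons at 9 and in coding exons at 5. By arm, 42 peaks were on 2L, 37 on 2R, 38 on 3L, 49 on 3R and 20 on X, with none on 4 or Y.

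Both replicates' thresholded lists held most of the strong peaks of the class, and neither list held most of the weakest. Thresholded peaks of both replicates overlapped 79 of 186 peaks (42.5%, 35.6% to 49.7%), against 112 of 253 single-promoter peaks (44.3%), an odds ratio of 0.929 (adjusted exact p = 0.77). Over all 910 peaks of the list on the arms the share was 41.4%. A further 45 divergent-promoter peaks overlapped a thresholded peak of replicate 2 only, 23 of replicate 1 only and 39 of neither. In 4 bins of signal from the highest to the lowest, 44 of 47, 28 of 46, 5 of 46 and 2 of 47 peaks overlapped thresholded peaks of both. The last 2 each overlap a stronger peak of the list, and the same thresholded peaks overlap that stronger one. Such shared overlaps can raise these counts, because 17 of the 186 peaks overlap another peak of the list. In the same order, 3, 17, 31 and 17 were thresholded in 1 replicate and 0, 1, 10 and 28 in neither. The pooled signal that set these bins derives from both replicates, so the bins and the overlaps are not independent. This fall across the bins is a description and no separate measure of reproducibility. The candidate lists are far longer, with 104058 entries in replicate 1 and 111249 in replicate 2, and 1 bp of overlap sufficed. Among all candidates, 177 peaks had an overlapping one in replicate 1 and all 186 had one in replicate 2. By that measure the comparison with single promoters turned round (95.2% against 86.6%, odds ratio 3.05, adjusted exact p = 0.00494). Without replicate 2, that is from replicate 1's own list, 77.8% of divergent-promoter peaks overlapped a thresholded peak of the other replicate against 90.8% of single-promoter peaks (odds ratio 0.353, adjusted exact p = 0.013). Candidate summits lay within 50 bp of the pooled summit at 154 of 177 peaks in replicate 1 and at 159 of 186 in replicate 2.

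**Figure D2:**
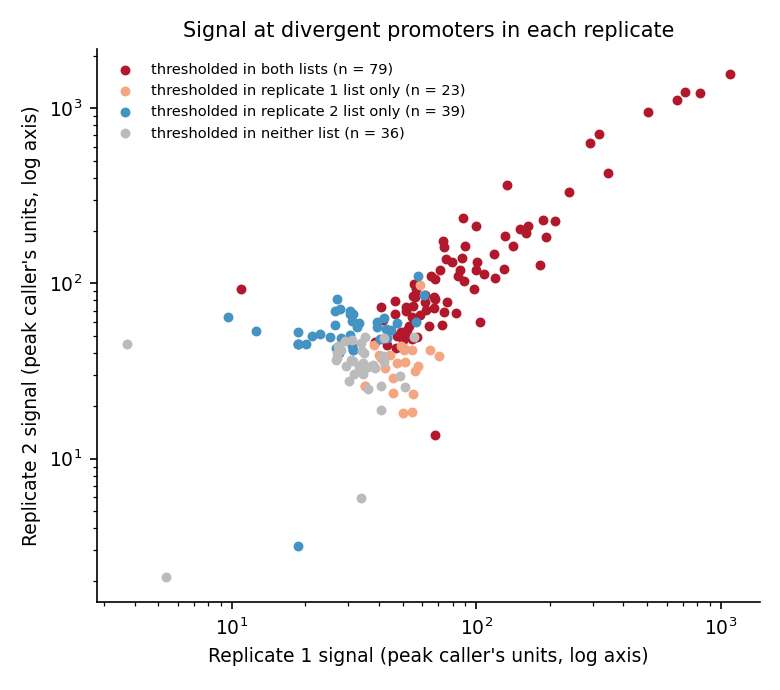
Signal of the overlapping replicate 1 candidate (x axis) and replicate 2 candidate (y axis), in the peak caller's units on log axes, for the 177 divergent-promoter peaks with a candidate in both replicates; colours show which replicate's thresholded list holds the peak. The 79 peaks thresholded in both lie mainly at the upper right, and the grey peaks, thresholded in neither, below 100 in both.

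The strongest peaks missing from replicate 1's thresholded list were Vps33B/Fur1, Alp12/Pax and CG15771/lin-52. Vps33B, a membrane trafficking gene, and Fur1, a furin protease gene, had 183 in the pooled list and 108 in replicate 2, with no candidate in replicate 1. The same was true of CG15771/lin-52, the second gene encoding a subunit of the dREAM repressor complex, with 152 and 93.3. At Alp12/Pax, the paxillin gene, the pooled signal was 167, with 57.6 in replicate 1 and 110.4 in replicate 2. Missing from replicate 2's list were CG8360/CG8372 (159 pooled, 59.1 and 98.4 in the replicates), SerRS/CG17260 (110.4, 64.9 and 41.8) and CG10467/loj (104, 70.1 and 38.4). Of these last, each had a candidate in replicate 2 that did not reach the authors' threshold.

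Divergent-promoter summits sat in AT-rich DNA. Windows reaching 100 bp to either side of the summit were under 40% GC at 148 of 186 peaks (79.6%), against 23.6% at divergent-promoter candidates, an odds ratio of 12.6 (adjusted exact p = 6.72e-54). With the comparison limited to summits between the starts, an alternative added after seeing the data, the shares were 83.3% and 55.65% (odds ratio 3.98, adjusted exact p = 1.29e-10). With windows centred 100 bp upstream of the nearest start, also added after seeing the data, they were 71.5% and 59.8% (odds ratio 1.69, adjusted exact p = 0.0025). The size of this difference therefore depended on where the windows were placed. Mean GC content was 31.6% in the central 40 bp of the peaks and 47.6% and 46.6% at 400 bp on either side. At single-promoter peaks it was 33.3% in the centre and 42.1% and 42.5% in the flanks. The share of windows under 40% GC at divergent promoters, 79.6%, did not pass against the 76.7% of single-promoter peaks (odds ratio 1.18, adjusted exact p = 0.557). It did with windows of 50 bp to either side (1.65, adjusted exact p = 0.0497) and with partner starts within 500 bp (1.98, adjusted exact p = 0.0181). It also passed without replicate 1 (84.7% against 74.6%, odds ratio 1.89, adjusted exact p = 0.0332). With the windows upstream of the nearest start, the shares were 71.5% at divergent-promoter peaks and 43.5% at single-promoter peaks (odds ratio 3.26, adjusted exact p = 1.26e-08).

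**Figure D3:**
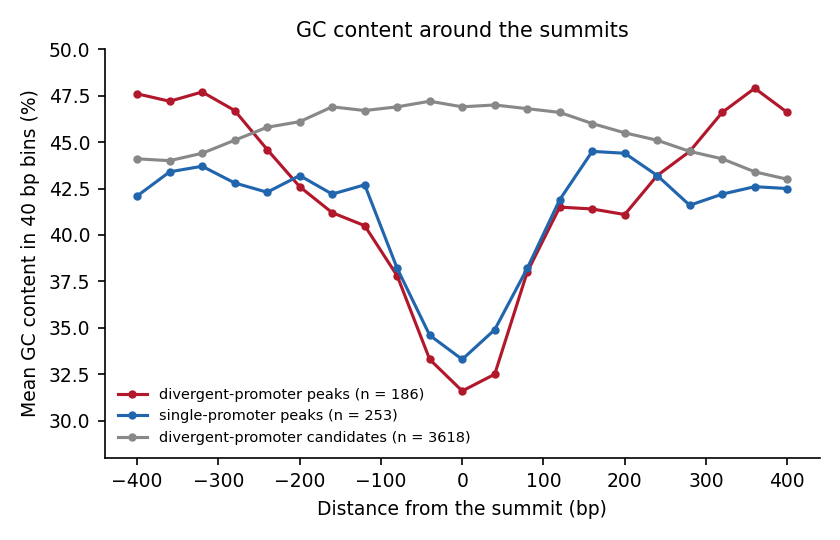
Mean GC content in 40 bp bins by distance from the summit (plus strand coordinates, not turned to the direction of the gene) for 186 divergent-promoter peaks, 253 single-promoter peaks and 3618 divergent-promoter candidates. Both peak classes dip at the summit, to 31.6% and 33.3%, while candidates are at 46.9% there.

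Ohler motif 7, DRE and CGATA were more frequent at divergent-promoter peaks than at single-promoter peaks. A total of 14 motifs were sought in these windows on both strands, and 4 passed against single-promoter peaks after adjustment over the 14. Ohler motif 7 occurred in 27 of 186 windows (14.5%, 10.2% to 20.3%), against 7 of 253 (2.77%), an odds ratio of 5.97 (adjusted exact p = 9.12e-05). The core letters of the BEAF-32 site, CGATA, occurred in 79 (42.5%) against 68 (26.9%), an odds ratio of 2.01 (adjusted exact p = 0.0051). DRE, TATCGATA, which contains CGATA, occurred in 13 (6.99%) against 5 (1.98%), an odds ratio of 3.73 (adjusted exact p = 0.0457). With matches inside DRE left out, CGATA was still in 72 windows (38.7%) against 66 (26.1%). The Brinker sequence, GGCGCC or GGCGCT, was less frequent, in 19 windows (10.2%) against 55 (21.7%), an odds ratio of 0.41 (adjusted exact p = 0.00848). Over all 17205 promoter windows, of peaks and candidates together, Ohler motif 7 was in 2.89%, CGATA in 22.9%, DRE in 1.05% and the Brinker sequence in 13.2%.

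Summits stood at different places in both classes, with a median of -97.5 bp from the nearest start at divergent promoters and -204 bp at single promoters, so a window around the summit covers different parts of the promoter. With windows of the same length centred 100 bp upstream of the nearest start in both, an alternative added after seeing the data, Ohler motif 7 (12.4% against 1.98%, adjusted exact p = 9.17e-05), CGATA (40.3% against 25.3%, adjusted exact p = 0.00318) and the Brinker sequence (9.68% against 20.2%, adjusted exact p = 0.00929) passed. DRE did not (6.99% against 3.56%, adjusted exact p = 0.287), and it passed in 4 of 14 alternatives. It also failed in the conservative list (adjusted exact p = 0.388), without replicate 1 (0.308) and without replicate 2 (0.397). Ohler motif 7 passed in 12 of 14, all but the peaks above the list's median signal (11.5% against 3.5%, adjusted exact p = 0.119) and windows of 50 bp to either side (2.69% against 0.791%, adjusted exact p = 0.651). Without replicate 1 and without replicate 2, 2 motifs passed in each case. They were Ohler motif 7 (adjusted exact p = 0.0038) and GAGAG (10.7% against 24.1%, adjusted exact p = 0.0149) without replicate 1, and Ohler motif 7 (0.0321) and the Brinker sequence (0.0208) without replicate 2. CGATA passed in neither (adjusted exact p = 0.191 without replicate 1 and 0.0729 without replicate 2). In windows of 50 bp to either side none of the 14 motifs passed Fisher's exact test after adjustment, and 2 had an unadjusted p under 0.05. In the start-centred windows GAGAG, the GAGA factor sequence, was in 17.7% at divergent promoters against 45.5% at single promoters (adjusted exact p = 9.5e-09), against 14.5% and 23.7% around the summits (adjusted exact p = 0.0543).

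**Figure D4:**
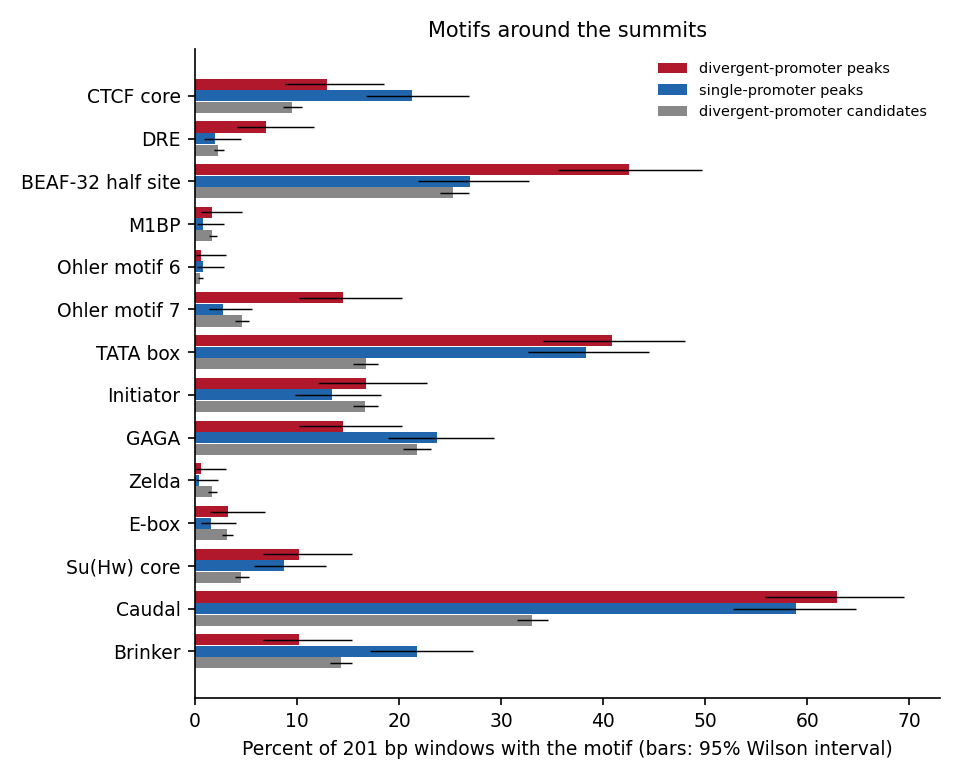
Percent of windows (100 bp to either side of the summit) that hold each of 14 motifs, with 95% Wilson intervals, in 186 divergent-promoter peaks, 253 single-promoter peaks and 3618 divergent-promoter candidates. Ohler motif 7, DRE and CGATA of BEAF-32 are higher in divergent-promoter peaks than in both other classes.

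Against divergent-promoter candidates, 7 of the 14 motifs passed. TTTATG or TTTATT, the Caudal sequence, was in 62.9% of windows against 33.0% (35.3% of all promoter windows), and TATAAA in 40.9% against 16.7% (16.5% of all). Ohler motif 7 (14.5% against 4.56%), CGATA (42.5% against 25.3%), DRE (6.99% against 2.27%) and the Su(Hw) core, TGCATAC or TGCATAT (10.2% against 4.53%, and 5.38% of all), were also more frequent. Single-promoter peaks had similar shares of the Caudal sequence (58.9%), TATAAA (38.3%) and the Su(Hw) core (8.7%), and none of these passed against them. GAGAG was less frequent (14.5% against 21.7%, adjusted exact p = 0.0429, and 24.1% of all). Base content also differed, with 79.6% of peak windows and 23.6% of candidate windows under 40% GC, and its part in the motif shares was not tested. The motif differences moved with where the summits lay. With summits between the starts only, added after seeing the data, none passed Fisher's exact test after adjustment, and 4 had an unadjusted p under 0.05. Ohler motif 7 was then in 16.7% against 9.29% (adjusted exact p = 0.115). In the start-centred windows none of these 7 passed, and the odds ratios of CGATA (0.924) and DRE (0.816) lay below 1. Around the summits, the Su(Hw) core did not pass without replicate 1 (adjusted exact p = 0.124) or without replicate 2 (0.277), CGATA did not without replicate 1 (0.0516), and GAGAG did not without replicate 2 (0.8). The Caudal sequence, TATAAA, Ohler motif 7 and DRE passed with either replicate left out. TATAAA sat 20 to 40 bp upstream of the nearest start and in its sense, where a working TATA box lies, in 6 of 186 peaks (3.23%), against 6 of 253 single-promoter peaks (2.37%) and 167 of 3618 candidates (4.62%).

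In the pooled list, 6 motifs did not pass in either comparison around the summits. They were the CTCF core (12.9% at divergent-promoter peaks, 21.3% at single-promoter peaks, 9.48% in candidates and 8.99% of all promoter windows), the M1BP element GGTCACAC (1.61%, 0.791%, 1.69% and 0.918%) and Ohler motif 6 (0.538%, 0.791%, 0.498% and 0.25%). The others were the Initiator, TCAGTC or TCAGTT (16.7%, 13.4%, 16.6% and 19.6%), the Zelda site CAGGTAG (0.538%, 0.395%, 1.66% and 1.51%) and the E-box CACGTG (3.23%, 1.58%, 3.12% and 3.09%). The CTCF core missed the threshold against single-promoter peaks narrowly (odds ratio 0.546, adjusted exact p = 0.0543). It passed with summits up to 1000 bp from a start (14.2% against 23.5%, adjusted exact p = 0.0252), in 1 of 14 alternatives, and in start-centred windows the direction turned round (14.5% against 12.6%, odds ratio 1.17, adjusted exact p = 0.747). Against candidates it passed in 7 of 15 alternatives, with odds ratios of 1.22 to 2.47 over all 15. These included both leave-outs: 17.6% against 8.86% without replicate 1 (adjusted exact p = 0.00835) and 20.2% against 9.29% without replicate 2 (adjusted exact p = 0.00382). The conservative list (16.1% against 9.43%, adjusted exact p = 0.0342) and the peaks above the list's median signal (19.5% against 9.48%, adjusted exact p = 0.017) were others. In start-centred windows it was the 1 motif that passed against candidates (14.5% against 7.38%, adjusted exact p = 0.0147).

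The CTCF core was most frequent at the strong end of the divergent-promoter class. It was present at 10 of the 15 strongest peaks, and in 4 bins of signal, from the highest, at 15 of 47, 2 of 46, 6 of 46 and 1 of 47. Median signal was 218 at the 24 peaks with the core and 93.2 at the 162 without it. Single-promoter peaks also held the core more often at high signal. Among peaks above the list's median signal it was at 45 of 143 single-promoter peaks (31.5%), against 54 of all 253 (21.3%). At divergent promoters it was at 17 of 87 such peaks (19.5%), against 24 of all 186 (12.9%). The core's centre lay a median of 18.5 bp from the summit, within 25 bp at 15 of 24 peaks, against 29 of 54 single-promoter peaks and 93 of 343 candidates with the core. The Brinker sequence, whose letters can overlap the 3' end of the core, was in 10 of the 24 windows with the core and in 9 of the 162 without. Its lower share at divergent promoters stands beside the share of the core around the summits. In start-centred windows the Brinker sequence was still less frequent than at single-promoter peaks, while the core was not. The part of one in the other was not tested. Ohler motif 7 can also overlap the core, and 3 windows held both.

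Peaks with Ohler motif 7 or DRE were spread over the range of signal. The 27 peaks with Ohler motif 7 had a median signal of 87.8, and 24 of these summits lay between the starts. The 13 peaks with DRE had a median of 90.0, with 12 between the starts, and 6 windows held both elements. In the 4 bins from the highest signal, Ohler motif 7 was in 6, 4, 10 and 7 windows. Its matches lay a median of 68 bp from the summit and those of DRE 62.5 bp, farther out than the CTCF core. The fws/Lamtor3 peak, whose DRE is shown above, had a signal of 226 in the pooled list, 87.0 in replicate 1 and 139 in replicate 2. At Bulli/CG10147, with 155, 76.1 and 78.2, 2 matches to Ohler motif 7 flank the summit. None of the CTCF core, DRE, CGATA or TATAAA was present at 56 of the 186 peaks (30.1%), CenG1A/mRpS23 among them.

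**Figure D5:**
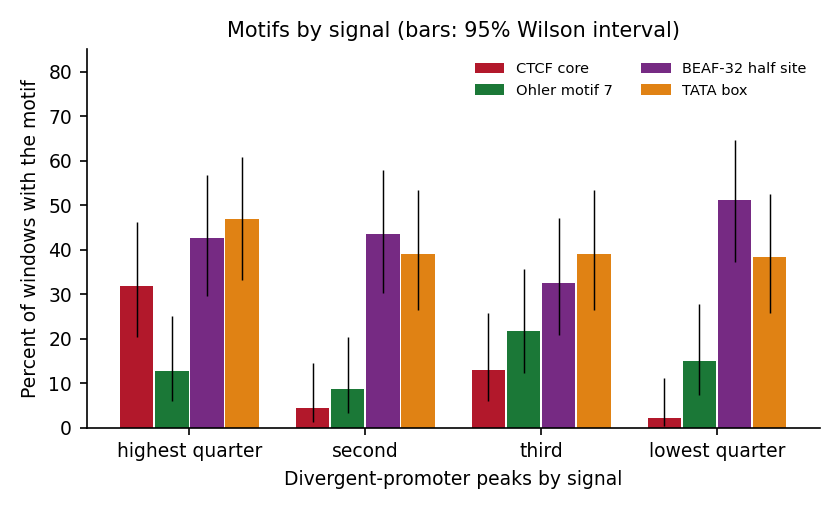
Percent of windows (100 bp to either side of the summit) that hold each of 4 motifs in the 186 divergent-promoter peaks, divided into 4 bins by the authors' signal (46 or 47 peaks each, highest at left), with 95% Wilson intervals. The CTCF core falls to 2.13% in the lowest bin, against 31.9% in the highest, and CGATA of BEAF-32 is at 51.1% and 42.6% in the lowest and highest bins.

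The genes at these start pairs were read against lists of 20 gene groups, with no test. Of 5527 protein-coding genes that have a divergent start, 332 (6.01%) were at a start pair with a peak. A gene counted at either start of the pair, and both starts lay within 500 bp of the summit at 158 of 186 peaks (84.9%). Genes for mitochondrial ribosomal proteins were at 7 of 58 (12.1%). These 7 were mRpL41, mRpS23, mRpS10, mRpL23, mRpL24, mRpL32 and mRpS2. The mRpS10/Art3 peak, with an arginine methyltransferase gene on the other side, had 326 in the pooled list, 88.2 in replicate 1 and 237 in replicate 2. At mRpL23/CG9004, whose starts are 50 bp apart, the peak had 232 in the pooled list and 132 in replicate 2. Cytoplasmic ribosomal protein genes were at 5 of 58 (8.62%), with RpL32/CG7943 (138) and RpS20/CG17271 (102) the strongest. Translation initiation factors were at 4 of 22 (18.2%), namely eIF2Bbeta (569), eIF6 (317), eIF3c (119) and eIF5B (82.7). The summit of the eIF2Bbeta pair lay 20 bp from the start of its neighbour Ugalt, and these starts are 719 bp apart. Aminoacyl-tRNA synthetases were at 3 of 24, the genes SerRS (110.4), ThrRS (75.4) and GluProRS (75.3).

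Insulator and promoter architecture proteins were at 3 of 13 (23.1%). Chro, encoding the interband protein Chromator, shares its promoter with Ssl1, a TFIIH subunit gene, where signals were 355 in the pooled list, 160.4 in replicate 1 and 193 in replicate 2. Cp190, an insulator cofactor gene, had 172 in the pooled list with its neighbour CG4338, and pzg, a Chromator partner gene, had 40.9 in replicate 1 and 73.0 in replicate 2 with CG12974. Autophagy genes were at 3 of 16 (Atg18a with ERR, Atg17 with Xe7, and Atg7 with Sec6), at signals of 88.4 to 113. Vesicle trafficking genes were at 4 of 53, RNA polymerase II and general factors at 2 of 25 (Polr2B and Polr2H), and heat shock proteins at 2 of 11 (Hsc70-5 with 95.3 and Hsc70-4 with 72.0). There was 1 gene each among 20 Mediator subunits (MED7), 18 nuclear pore genes (Nup37), 47 respiratory chain genes (ND-MWFE) and 7 MADF-BESS genes (brwl, signal 191). Proteasome subunits had 0 of 26, spliceosome proteins 0 of 28, DNA replication genes 0 of 16, mitochondrial import 0 of 5 and gap and pair-rule genes 0 of 2. None of the 8 Hox genes and 11 neural genes listed had a divergent start. With counts this small, shares between 0% and 23.1% are a description of the lists.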

How the data were processed

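Per the labels, ChIP-seq was made from 2 biological replicates of whole embryos carrying Dip2-eGFP. The files deposited by the authors are 4 thresholded peak lists (irreproducible discovery rate, dm6), each with a ranked list of candidates. Each peak holds the signal value of the authors' peak caller, a scaled score deposited by the authors, and a summit. The aligner and caller were not given in the sources used here, nor was the scale of the signal, which was therefore used within a list only. The score was not tested.

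Summits on 7 arms of the 973-peak list were annotated with Ensembl release 115 gene models, transposable elements left out, and RefSeq sequence of the same assembly. Candidates were those of its ranked list that overlap no thresholded peak. Overlap meant at least 1 bp, and motif and GC windows reached 100 bp to either side of the summit. Shares were compared with two-sided Fisher's exact tests (SciPy 1.17.1, with Python 3.11.15, pandas 2.3.3 and matplotlib 3.10.9) and Benjamini-Hochberg adjustment over the 8 shares, or over the 14 motifs of each comparison, at a threshold of 0.05. The computations were tested on simulated data. The peaks, motifs and gene lists were chosen with earlier results of these data known. Genes named are those of the 15 strongest peaks, up to 4 per gene list by signal, the 3 strongest without a thresholded peak of each replicate, the 3 shortest and 3 longest start distances, and 2 peaks on each side of the 500 bp and 1000 bp limits. Further genes are named as chosen later. Alternatives were another list, each replicate's own list, the peaks above the list's median signal, other distances, windows, overlaps and candidates, protein-coding starts, and 1 peak per start pair.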

Additional observations from a re-analysis of the deposited data

How the results depend on the processing

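Summits between the starts, short start distances and low GC content against candidates kept their direction and passed in all alternatives run. Odds ratios ran from 5.4 to 15.2 for summits between the starts, and from 1.69 (windows upstream of the start) to 18.2 (summits up to 1000 bp away) for GC content against candidates. Both genes being protein-coding no longer passed with summits up to 1000 bp away (odds ratio 1.59) or partner starts up to 2000 bp away (1.42). Signal above the promoter median passed with promoters of 250 bp (0.596) and partners up to 2000 bp away (0.56). Without each replicate in turn, the odds ratio for peaks in both replicates was 0.353 to 1.42, and with candidates of each replicate it turned round (3.05). GC content under 40% against single promoters passed with partners within 500 bp (1.98), windows of 50 bp to either side (1.65) and windows upstream of the start (3.26), and was 1.07 to 1.89 without each replicate in turn. Motifs past the threshold against single promoters, 4 in the comparison above, numbered 2 without either replicate (2 in each case), 2 in the peaks above the list's median signal, 1 with partners up to 2000 bp away, 0 with windows of 50 bp to either side and 7 with windows of 250 bp to either side. Against candidates, 7 became 4 with windows of 50 bp to either side, 0 with summits between the starts only and 1 with windows upstream of the start. The cause of these changes was not tested. No paired analysis was possible because the series has 1 group. The windows between and upstream of starts were added after seeing the data. Without read counts, depth sets no limit that can be given here.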
